A study of Rattus norvegicus with 30 samples.

Results

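The cytochrome P450 genes described here are those left once the classic inducible families and the main enzymes of bile acid, androgen and sterol synthesis are set aside. They were taken from the array's gene annotation as genes whose symbol begins with Cyp and a digit, leaving out Cyp1a, Cyp1b, Cyp2a, Cyp2b, Cyp2c and Cyp3a genes and Cyp2e1, Cyp4a1, Cyp7a1, Cyp7b1, Cyp8b1, Cyp17a1, Cyp27a1 and Cyp51. A gene had to be named alone by a probe set, and of several such probe sets the one with the highest mean over all 30 arrays was read. This gave 30 genes, out of 58 P450 genes and 14217 genes that could be read in this way. The rule used names and mean signal and no comparison between groups.

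The livers came from Wistar Han rats that received the commercial flame retardant DE-71, which is made up of polybrominated diphenyl ethers (PBDE), by gavage in corn oil, or corn oil without it. There were 6 groups of 5 livers. These were male PBDE pups and male control pups, female PBDE pups and female control pups, all on postnatal day 22, and adult male PBDE rats and adult male control rats at week 13. The dose was 50 mg/kg in the PBDE groups and 0 mg/kg in the control groups, at 5 ml/kg. Dams were dosed daily, 7 days a week, starting on gestation day 6 and ending on postnatal day 21, with direct dosing of the pups up to that day, and the adults went on at 5 days a week after weaning. The labels give every pup a dam of its own, and every adult a dam of its own within its dose group. RNA from a section of whole liver was measured on Affymetrix rat genome arrays. Values are the deposited log2 signals made with RMA, in which a difference of 1 is a doubling.

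P450 enzymes are haem proteins that insert an oxygen atom into small lipophilic molecules. Most sit in the endoplasmic reticulum and take electrons from P450 oxidoreductase, encoded by Por, while some of those that make steroid hormones or activate vitamin D sit in mitochondria and use ferredoxin. The genes described here span drug-metabolising Cyp2d enzymes, Cyp2j epoxygenases of arachidonic acid, Cyp4 omega-hydroxylases of fatty acids and leukotrienes, Cyp26 enzymes that break down retinoic acid, and enzymes of sterols, steroid hormones and vitamin D. In liver, P450 enzymes are found above all in hepatocytes.

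The arrays were alike in scale, with array medians between 5.72 and 5.77 and a mean correlation with the other arrays of the group between 0.988 and 0.994. Array names in the labels carry 2 prefixes of 3 groups each: the male PBDE, male control and female control pups share the first, and the female PBDE pups and both adult groups the second. Dose in male pups, dose in adults and sex in controls were therefore compared within a prefix. In female pups, in PBDE pups of different sex and between ages, prefix and group cannot be told apart. The 6 hepatocyte markers had a mean level between 13.56 and 13.97 on every array. The 3 markers of kidney proximal tubule lay below the array median on all 30 arrays. Of 2 measured markers of adrenal cortex only Nr5a1 did so, and of 4 measured markers of pancreas only Prss1. The pancreas markers had a mean level between 6.37 and 7.03 over the arrays, above the array medians. Gapdh control probes give a 3' minus 5' difference that widens as RNA degrades, and it was 2.09 ± 0.65 in male pups with PBDE, against 1.61 ± 0.33 in their controls (SD, n = 5 each, two-sided exact permutation p = 0.198). It was 1.93 ± 0.30 in female PBDE pups and 1.26 ± 0.50 in female control pups (exact p = 0.0397), and 1.17 ± 0.62 in adult PBDE rats and 0.62 ± 0.18 in adult control rats (exact p = 0.0238). Adjusted over these 3 tests, both lower p-values became 0.0595, and 0.00794 is the smallest p this design allows.

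Of the 30 genes, 18 lay above the array median on all 30 arrays, 9 lay below it on all 30, and Cyp26b1, Cyp2j10 and Cyp4a8 fell on either side. The array median stands here only as a guide to dim signals, since the deposited values hold no detection calls, and levels of different probe sets are not ranked against each other. The 9 dim genes were the steroid hormone enzymes Cyp11a1, Cyp11b1, Cyp21a1 and the oestrogen-forming aromatase Cyp19a1, the vitamin D-activating enzyme Cyp27b1, the retinoic acid hydroxylase Cyp26a1, the olfactory enzyme Cyp2g1, Cyp2s1 and Cyp4f5. The span between their lowest and highest group means ran from 0.15 for Cyp2g1 and Cyp2s1 to 0.43 for Cyp11a1, which averaged 4.93 in male PBDE pups and 4.50 in female PBDE pups. None of the 9 passed the threshold in any comparison. At the other end, Cyp2d2 had group means between 14.03 and 14.07, with a span of 0.04 that was the smallest of the 30. The widest spans between group means were those of Cyp4a8 (2.67), Cyp2d3 (2.66) and Cyp26b1 (1.99).

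The first question was which of these genes differed between DE-71 and vehicle in male pups. At the false discovery rate of 0.01 that the study's design text sets for pups, 3 of the 30 rose and 0 fell, namely Cyp2j4, Cyp39a1 and Cyp2d4. Of all 14217 genes, 7.48% passed in either direction, 4.23% upward and 3.26% downward. Whether 3 of 30 departs from these shares was not tested. The median log2 difference, PBDE minus control, was 0.107 over the 30 genes and 0.02 over all genes, and single differences ran from -0.44 to 0.93. Unadjusted p was below 0.05 for 13 of the 30, and 6 passed a false discovery rate of 0.05, where 14.2% of all genes did. No share of all genes at an unadjusted p below 0.05 was taken, here or in the comparisons that follow. Such counts therefore have no background beside them. In 6 of the 30 the male PBDE and male control pups did not overlap, as in 11.9% of all genes.

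Cyp2j4 encodes an epoxygenase of arachidonic acid. Its log2 signal was 10.90, 10.89, 10.78, 11.16 and 10.90 in male PBDE pups, against 10.56, 10.28, 10.33, 10.29 and 10.43 in male control pups. All 5 PBDE pups lay above all 5 control pups. The difference was 0.55 ± 0.10 (SE, n = 5 per group, 95% interval 0.34 to 0.76), a 1.46-fold rise (limma, adjusted p = 0.000536), and no alternative setting or left-out array ended this call (adjusted p 0.000374 to 0.00292). In females, where the groups also differ in array prefix, Cyp2j4 gave 10.99, 10.79, 11.07, 10.81 and 10.91 in PBDE pups, against 10.30, 10.71, 10.42, 10.35 and 10.72 in control pups. The groups again did not overlap, though control pups 2 and 5 came close to the lowest PBDE pups. The rise of 0.42 ± 0.10 (interval 0.21 to 0.63, 1.33-fold, adjusted p = 0.0083) lay near the threshold. It did not pass without PBDE pup 1, 3, 4 or 5 or control pup 1, 3 or 4 (0.0106 to 0.0319), with the Gapdh difference as a covariate (0.0568), after renewed quantile normalization (0.0126), with the 2 female groups alone (0.0216) or with a replicate block (0.0105). In adults the values were 10.26, 10.03, 10.30, 10.29 and 10.60 with PBDE and 10.15, 10.43, 10.00, 10.37 and 10.34 in controls, which overlapped throughout (0.04 ± 0.10, interval -0.17 to 0.25, adjusted p = 0.897).

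The other Cyp2j genes, which lie beside Cyp2j4 on its chromosome, did not pass in any dose comparison. Cyp2j3, which has no protein-coding gene between it and Cyp2j4 in the RefSeq order, also encodes an epoxygenase. It differed by 0.44 ± 0.27 in male pups (adjusted p = 0.349), 0.29 ± 0.27 in female pups (0.614) and -0.02 ± 0.27 in adults (0.98). The spread within groups was wide for Cyp2j3: male control pup 4 stood at 8.76 beside 9.64 to 10.45 for the other male controls, and female control pup 3 at 8.77 beside 9.75 to 10.53. The second probe set of Cyp2j3 followed the first closely, with a within-group correlation of 0.98 over the 30 arrays, which share their normalization. Cyp2j10, separated from Cyp2j4 by 1 protein-coding gene, differed by -0.09 ± 0.18, -0.26 ± 0.18 and 0.28 ± 0.18 in male pups, female pups and adults, with the lowest adjusted p at 0.45.

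Cyp39a1 encodes a hydroxylase of oxysterols in a minor route to bile acids. Its signal was 11.15, 10.84, 10.42, 10.42 and 10.46 in male PBDE pups, against 9.26, 9.35, 10.28, 10.33 and 9.65 in male control pups. The groups did not overlap, but the lowest PBDE pups stood only just above control pups 3 and 4. The 1.84-fold rise (0.88 ± 0.20, interval 0.47 to 1.3, adjusted p = 0.00419) did not pass without PBDE pup 1 or 2 or control pup 1, 2 or 5 (0.0128 to 0.0184), with the Gapdh covariate (0.0135) or with the 2 male pup groups alone (0.0251), while the difference itself stayed between 0.76 and 1.02 over the alternatives. Female PBDE pups gave 10.18, 10.32, 10.15, 10.70 and 10.15, against 9.61, 9.68, 9.51, 9.58 and 9.69 in female control pups. Here too all PBDE pups lay above all controls, with a difference of 0.68 ± 0.20 (interval 0.27 to 1.1) that missed the threshold (adjusted p = 0.032). It passed when only the 2 female groups were fitted (0.00155), whose SD was 0.24 with PBDE and 0.07 in controls. Adult PBDE rats ran from 10.07 to 10.52 with a median of 10.45, inside the range of adult control rats, 9.59 to 10.76 with a median of 10.24 (0.21 ± 0.20, adjusted p = 0.668).

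Cyp2d4 belongs to the Cyp2d subfamily of drug-metabolising enzymes. It gave 9.66, 9.68, 9.73, 9.78 and 9.47 in male PBDE pups, against 9.04, 9.32, 9.29, 9.38 and 9.29 in male control pups. In females it gave 9.56, 9.66, 9.87, 9.64 and 9.91 with PBDE, against 9.47, 9.46, 9.17, 9.08 and 9.34 in controls. PBDE pups lay above controls without overlap in both sexes. The rise was 0.40 ± 0.09 in males (interval 0.21 to 0.59, 1.32-fold, adjusted p = 0.00434) and 0.43 ± 0.09 in females (interval 0.24 to 0.62, 1.34-fold, adjusted p = 0.00269). In males it did not pass without PBDE pup 2, 3 or 4 or control pup 1 (0.0102 to 0.0177), and in females without PBDE pup 3 or 5 or control pup 3 or 4 (0.0112 to 0.0138). With only the 2 groups compared, adjusted p was 0.0104 in males and 0.0187 in females.

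The second probe set of Cyp2d4 gave a noisier picture. Its differences were 0.50 ± 0.27 in male pups (adjusted p = 0.276), 0.41 ± 0.27 in female pups (0.432) and 0.00 ± 0.27 in adults (0.999), so that the sizes were close in pups and the errors wider. Within groups the 2 probe sets did not move together over the 30 arrays (r = 0.04). For Cyp4a8 the 2 probe sets did (r = 0.95).

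**Figure D1:**
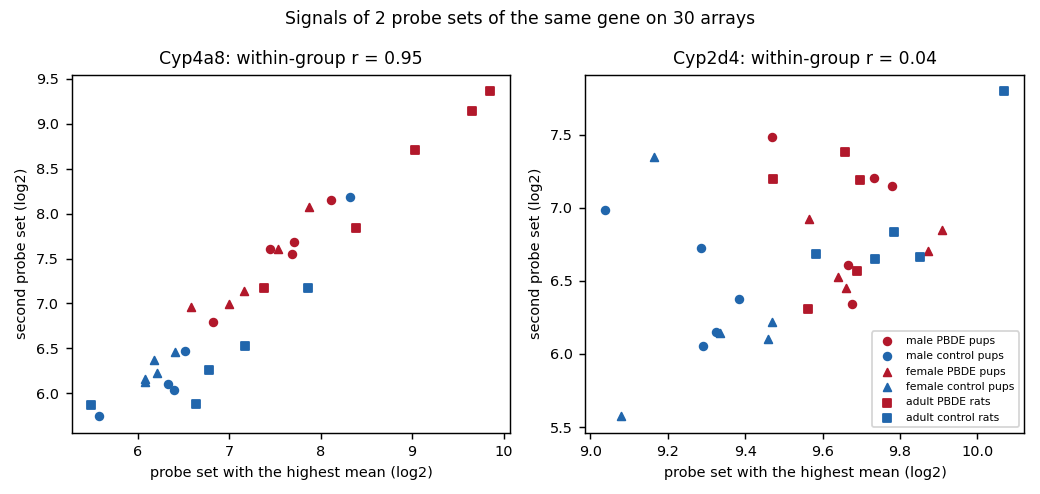
Log2 signal of the second probe set (vertical axis) against the probe set with the highest mean (horizontal axis) for Cyp4a8 and Cyp2d4, 1 point per array, red for PBDE and blue for control, with circles for male pups, triangles for female pups and squares for adults. The Cyp4a8 points follow a line (within-group r = 0.95), and the Cyp2d4 points scatter (r = 0.04).

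The other Cyp2d genes did not pass in any dose comparison. Cyp2d3 stood at 11.47 ± 0.36 in male PBDE pups, against 11.06 ± 0.41 in male control pups (SD, n = 5 each), a difference of 0.41 ± 0.18 (SE, adjusted p = 0.148), and at 10.67 ± 0.41 in female PBDE pups and 10.99 ± 0.25 in female control pups (-0.32 ± 0.18, adjusted p = 0.335). Cyp2d2 differed by -0.02 ± 0.06, 0.04 ± 0.06 and 0.01 ± 0.06 in male pups, female pups and adults. Genes of the Cyp2d subfamily are close in sequence, and a probe set named for a single one may also take up RNA of another. The probe set that the annotation gives to both Cyp2d5 and Cyp2d1, which is not among the 30, differed by -0.15 ± 0.26, -0.50 ± 0.26 and 0.00 ± 0.26.

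In female pups 2 of the 30 genes rose and 0 fell, Cyp2d4 and Cyp2j4, where 6.13% of all genes passed in either direction, 3.95% upward and 2.18% downward. Differences ran from -0.61 to 1.04 with a median of 0.015, beside 0.016 over all genes. Unadjusted p was below 0.05 for 9, and 3 passed a false discovery rate of 0.05, as did 11.1% of all genes. The groups did not overlap for 4 of the 30, against 10.9% of all genes.

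Among the Cyp4f genes, whose products omega-hydroxylate fatty acids and leukotrienes, none passed in pups, and Cyp4f4 and Cyp4f1 stood in opposite directions. In male pups Cyp4f4 was 11.54, 11.49, 11.46, 11.59 and 11.59 with PBDE, against 11.10, 11.13, 11.38, 11.05 and 11.23 in controls, and Cyp4f1 was 13.13, 13.23, 13.30, 13.32 and 13.37 with PBDE, against 13.46, 13.53, 13.53, 13.44 and 13.59 in controls. Neither pair of groups overlapped, with PBDE pups higher for Cyp4f4 and lower for Cyp4f1. The differences were 0.36 ± 0.10 (adjusted p = 0.0248) and -0.24 ± 0.08 (0.0507) in male pups, 0.28 ± 0.10 (0.108) and -0.18 ± 0.08 (0.182) in female pups, and 0.15 ± 0.10 (0.526) and -0.14 ± 0.08 (0.387) in adults. Cyp4f5, below the array median on every array, differed by 0.26 ± 0.12, 0.23 ± 0.12 and 0.24 ± 0.12 in the 3 dose comparisons, with adjusted p from 0.187 to 0.337. Cyp4f17 differed by 0.28 ± 0.13 in male pups (0.184), 0.01 ± 0.13 in female pups and 0.02 ± 0.13 in adults. Cyp4f1 and Cyp4f6 are direct neighbours in the RefSeq order, and both stood lower with PBDE in all 3 comparisons. Of these 6 differences only that of Cyp4f6 in adults passed. Cyp4f17 and Cyp4f5 are direct neighbours too, and both stood higher with PBDE in all 3, with no difference that passed. A link between order and direction was not tested.

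The question in adult males was which of the 30 genes differed after dosing up to week 13. At the false discovery rate of 0.05 set for adults, Cyp4a8 rose and Cyp4f6 and Cyp2t1 fell, making 3 of 30, where 3.9% of all genes passed, 1.86% upward and 2.04% downward. Differences ran from -0.45 to 2.07 with a median of 0.021, beside 0.009 over all genes. Unadjusted p was below 0.05 for 6, and the groups did not overlap for 3 of the 30 and for 4.59% of all genes. The smallest adjusted p among those that did not pass was 0.0569.

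Cyp4a8 encodes a fatty acid omega-hydroxylase of the Cyp4a subfamily. Its signal was 8.38, 7.38, 9.03, 9.66 and 9.86 in adult PBDE rats, against 5.49, 7.86, 6.64, 7.17 and 6.78 in adult control rats. PBDE rat 2 lay below control rat 2, and the other 4 PBDE rats lay above all controls. The difference of 2.07 ± 0.43 (interval 1.19 to 2.95), a 4.21-fold rise, was the largest of the 30 in any dose comparison (adjusted p = 0.0053), and the second probe set gave 2.10 ± 0.38 (adjusted p = 0.00146). No left-out array ended the call, and with the 2 adult groups fitted alone adjusted p was 0.0773.

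In pups Cyp4a8 was also higher on average with PBDE but did not pass. Male PBDE pups gave 8.11, 7.68, 7.71, 6.83 and 7.45, against 6.33, 6.39, 5.57, 8.32 and 6.52 in male control pups, so that control pup 4 stood above every PBDE pup and the other controls below them. The difference was 0.93 ± 0.43 (adjusted p = 0.184), and over the alternatives it lay between 0.61 and 1.35. Female PBDE pups gave 7.88, 6.58, 6.99, 7.53 and 7.16, against 6.08, 6.18, 6.40, 6.21 and 6.08 in female control pups, with no overlap. That difference was 1.04 ± 0.43 (adjusted p = 0.15), and with the 2 female groups fitted alone it passed (0.00502). The SD was 0.50 in female PBDE pups and 0.13 in female control pups, beside 1.02 in male control pups. The adult difference exceeded that of male pups by 1.14 ± 0.61, which did not pass the test of age by dose (adjusted p = 0.409).

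The neighbouring Cyp4a3 did not pass in any dose comparison. This fatty acid omega-hydroxylase, with 2 protein-coding genes between it and Cyp4a8, differed by 0.09 ± 0.25, -0.13 ± 0.25 and -0.21 ± 0.25 in male pups, female pups and adults, with adjusted p from 0.737 to 0.878. The probe set shared by Cyp4a3 and Cyp4a2 followed that of Cyp4a3 (within-group r = 0.93 over 30 arrays) and differed by -0.05 ± 0.22, -0.14 ± 0.22 and 0.03 ± 0.22. Of 8 measured targets of the fatty acid receptor PPARalpha, a list that holds no P450 gene of the 30, 1 passed upward in male pups (Pdk4, 1.34 ± 0.21), 1 upward in female pups (Acot1, 2.46 ± 0.43) and 0 in adults, where 1 had an unadjusted p below 0.05 in limma. Of all genes, 4.23%, 3.95% and 1.86% passed upward in these comparisons. Median differences of that list were 0.01, 0.19 and 0.04, beside 0.02, 0.016 and 0.009 over all genes. Acot1 averaged 5.89 in female PBDE pups and 3.43 in female control pups, the latter below the array medians.

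Cyp2t1 fell in adults. Its signal was 8.23, 8.70, 8.75, 8.30 and 8.07 in adult PBDE rats, against 8.84, 8.81, 8.89, 8.84 and 8.86 in adult control rats. The controls lay close together, with an SD of 0.03, and above all PBDE rats, 2 of which came close to them. The difference was -0.44 ± 0.12 (interval -0.69 to -0.19, 1.35-fold lower, adjusted p = 0.0462). It did not pass without PBDE rat 1, 4 or 5 or without any single control (0.0705 to 0.154), with the Gapdh covariate (0.104), after renewed quantile normalization (0.0601) or with the adult groups alone (0.138). In male pups the values were 8.31, 8.24, 8.35, 8.62 and 8.86 with PBDE and 8.81, 9.0, 9.15, 8.73 and 8.85 in controls, and the same difference of -0.44 ± 0.12 missed the stricter threshold for pups (adjusted p = 0.019). Without male PBDE pup 5, the highest of its group, it was -0.53 and passed (adjusted p = 0.00472). Female PBDE pups ran from 8.34 to 8.59 with a median of 8.39, against 8.42 to 8.97 with a median of 8.81 in female control pups (-0.32 ± 0.12, adjusted p = 0.116).

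Cyp4f6, another omega-hydroxylase of the Cyp4f subfamily, also fell in adults. It gave 10.56, 10.44, 10.50, 10.46 and 10.28 in adult PBDE rats, against 10.72, 10.86, 10.93, 11.06 and 10.63 in adult control rats. All PBDE rats lay below all controls. The difference was -0.39 ± 0.10 (interval -0.59 to -0.19, 1.31-fold lower, adjusted p = 0.025), and it did not pass without PBDE rat 4 or 5 or control rat 2, 3 or 4 (0.0525 to 0.0836) or with the adult groups alone (0.0781). In male pups it gave 10.49, 10.58, 10.22, 10.64 and 10.49 with PBDE and 11.00, 10.56, 10.79, 11.02 and 10.81 in controls. Control pup 2 lay among the PBDE pups there. The difference of -0.35 ± 0.10 missed the stricter threshold of 0.01 for pups (adjusted p = 0.0202), but lay below the 0.05 used for adults. Without that control it was -0.42 and passed (adjusted p = 0.00683). In female pups the difference was -0.22 ± 0.10 (adjusted p = 0.208).

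The markers of other liver cells moved with some of these comparisons. Of all genes, 3.26% passed downward in male pups, 2.18% in female pups and 2.04% in adults, and 4.23%, 3.95% and 1.86% upward. Of 5 measured markers of sinusoidal endothelium, 3 fell in male pups, 1 in female pups and 0 in adults, where 1 had an unadjusted p below 0.05 in limma. Their mean level ran from 9.18 to 9.51 in male PBDE pups, against 9.79 to 10.05 in male control pups, from 9.30 to 9.64 in female PBDE pups, against 9.76 to 10.00 in female control pups, and from 9.15 to 9.59 in adult PBDE rats, against 9.34 to 9.57 in adult control rats. Of 6 measured markers of Kupffer cells and macrophages, 2 fell in male pups, 0 in female pups and 1 in adults. At an unadjusted p below 0.05 in limma there were 2, 0 and 5, and the median differences were -0.19, -0.19 and -0.43. Their mean level ran from 8.14 to 8.35 in male PBDE pups, against 8.50 to 8.76 in male control pups, from 8.27 to 8.63 in female PBDE pups, against 8.18 to 9.31 in female control pups, and from 7.76 to 8.42 in adult PBDE rats, against 8.21 to 8.93 in adult control rats. None of these markers was below the array median on all arrays. Of 6 hepatocyte markers, 1 fell in pups of each sex. Of 6 stellate cell markers, 1 rose in male pups, 2 fell in female pups and 1 rose in adults, and 1 of 4 cholangiocyte markers rose in each comparison, with Krt7 below the array median on all arrays. Of 4 lymphocyte markers, 1 fell in adults, with Cd3e and Cd79b below the array median on all arrays, and no marker of erythroid cells, adrenal cortex, pancreas or kidney passed in a dose comparison. Their part in the differences of the P450 genes was not tested, and in these bulk samples fewer cells of a type and less RNA per cell cannot be told apart.

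**Figure D2:**
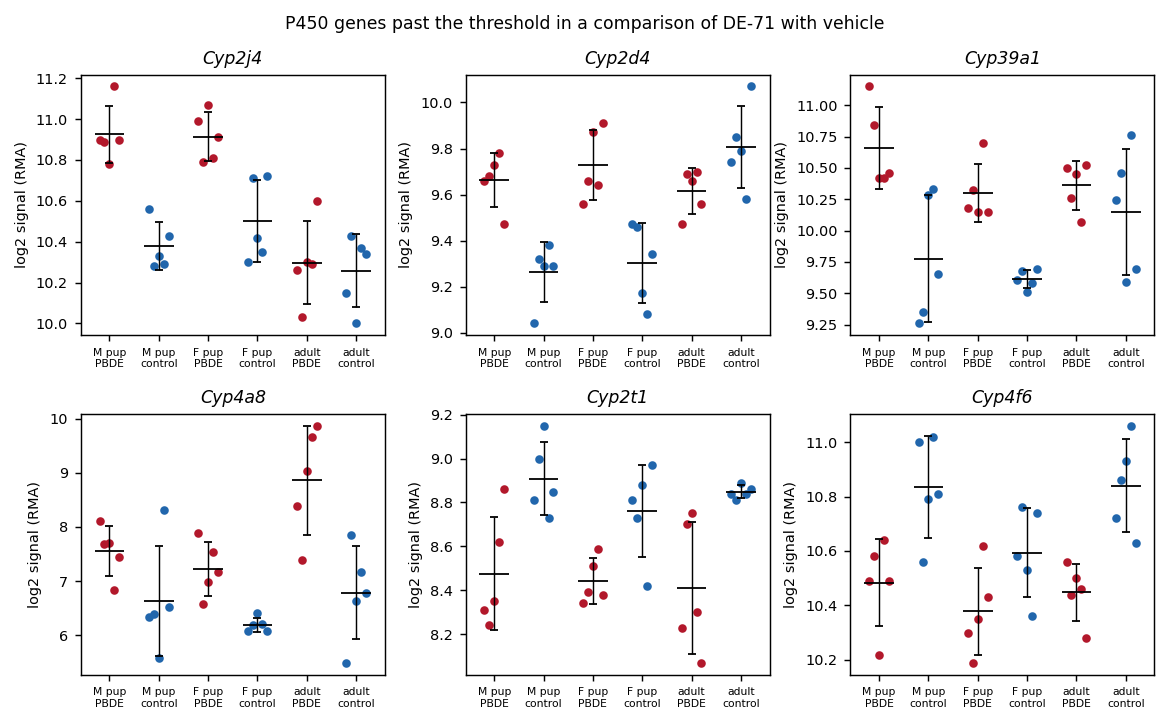
Log2 signal (vertical axes) of the 6 genes that passed in a dose comparison, by group; points are single livers, red for PBDE and blue for control, and bars are the mean and SD of 5. Cyp2j4, Cyp2d4 and Cyp39a1 separate PBDE from control pups without overlap in both sexes, and Cyp4a8 spreads from 7.38 to 9.86 in adult PBDE rats, against 5.49 to 7.86 in adult control rats.

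The promoters of 4 of these 6 genes are shown, those whose windows held at least 1 of the motifs searched. Of these, Cyp2j4 and Cyp39a1 passed upward in male pups, and Cyp2t1 and Cyp4f6 passed downward in adults. Each window runs from 250 bases before to 50 after the start that the RefSeq promoter table gives in build GRCr8, read 5′ to 3′ along the gene: chr5:116322993-116323292 on the minus strand for Cyp2j4, chr9:24804011-24804310 on the minus strand for Cyp39a1, chr1:91575260-91575559 on the plus strand for Cyp2t1 and chr7:12708329-12708628 on the minus strand for Cyp4f6. Capitals mark the letters GCGTG, the core bound by the aryl hydrocarbon receptor, and the nuclear receptor half-sites AGGTCA and AGTTCA, searched on both strands with no overlapping match. That start is the outer boundary of the gene for Cyp39a1 and Cyp4f6, but lies 177 bases inside it for Cyp2j4 and 1587 bases inside it for Cyp2t1, whose window is thus within the annotated gene.
Cyp2j4: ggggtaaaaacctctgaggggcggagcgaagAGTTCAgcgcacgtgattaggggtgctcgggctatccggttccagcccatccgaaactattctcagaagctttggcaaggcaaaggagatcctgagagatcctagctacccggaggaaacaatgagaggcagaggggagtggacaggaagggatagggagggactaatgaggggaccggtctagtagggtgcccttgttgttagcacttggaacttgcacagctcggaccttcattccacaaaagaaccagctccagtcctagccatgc
Cyp39a1: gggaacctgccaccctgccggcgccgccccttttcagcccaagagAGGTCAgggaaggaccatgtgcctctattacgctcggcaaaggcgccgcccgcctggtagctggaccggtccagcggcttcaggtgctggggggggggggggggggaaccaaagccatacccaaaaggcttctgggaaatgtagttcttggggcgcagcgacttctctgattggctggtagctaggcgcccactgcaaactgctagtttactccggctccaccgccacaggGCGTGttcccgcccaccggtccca
Cyp2t1: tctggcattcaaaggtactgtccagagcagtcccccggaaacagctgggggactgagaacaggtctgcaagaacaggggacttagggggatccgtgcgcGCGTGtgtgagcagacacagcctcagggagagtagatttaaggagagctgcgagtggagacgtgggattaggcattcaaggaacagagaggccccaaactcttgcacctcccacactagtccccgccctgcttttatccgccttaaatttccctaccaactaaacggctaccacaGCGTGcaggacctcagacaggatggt
Cyp4f6: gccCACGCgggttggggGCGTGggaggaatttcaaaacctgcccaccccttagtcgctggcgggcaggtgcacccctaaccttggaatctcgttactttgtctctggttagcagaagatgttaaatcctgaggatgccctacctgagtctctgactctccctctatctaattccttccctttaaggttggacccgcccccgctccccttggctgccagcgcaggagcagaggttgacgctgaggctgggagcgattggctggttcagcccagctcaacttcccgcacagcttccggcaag

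In the sequences above, Cyp2j4 held AGTTCA upstream of the start, and Cyp39a1 held AGGTCA upstream and GCGTG within the transcribed bases. Cyp2t1 and Cyp4f6 held GCGTG 2 times each, in Cyp4f6 on one occasion as CACGC, its reverse complement. The windows of Cyp2d4 and Cyp4a8 held none of these letters. A window was on hand for 25 of the 30 genes, and in 13 of them its start lay inside the gene's outer boundary. GCGTG occurred in 10 of the 25 (40.0%) and in 29.7% of 33469 rat promoters of the same length, AGGTCA in 6 (24.0%) and in 16.2%, and AGTTCA in 5 (20.0%) and in 14.5%. Such short runs are frequent, and a match describes the letters alone.

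Cyp2f4 narrowly missed the adult threshold. It encodes an enzyme known from lung, where it acts on small aromatic compounds, and has no protein-coding gene between it and Cyp2t1 in the RefSeq order. It gave 9.68, 9.87, 9.71, 9.44 and 9.63 in adult PBDE rats, against 9.96, 10.07, 10.09, 10.24 and 9.95 in adult control rats, with no overlap. The difference was -0.39 ± 0.11 (adjusted p = 0.0569), and it passed with the Gapdh covariate (-0.47, adjusted p = 0.0301), with a filter on low values (0.04) and without PBDE rat 2 (-0.44, adjusted p = 0.0366). In pups it differed by -0.16 ± 0.11 in males (0.449) and -0.07 ± 0.11 in females (0.82). Cyp2u1, a fatty acid hydroxylase, averaged 7.01 ± 0.12 in adult PBDE rats and 7.46 ± 0.44 in adult control rats (SD, n = 5 each), a difference of -0.45 ± 0.19 that did not pass (adjusted p = 0.202).

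**Figure D3:**
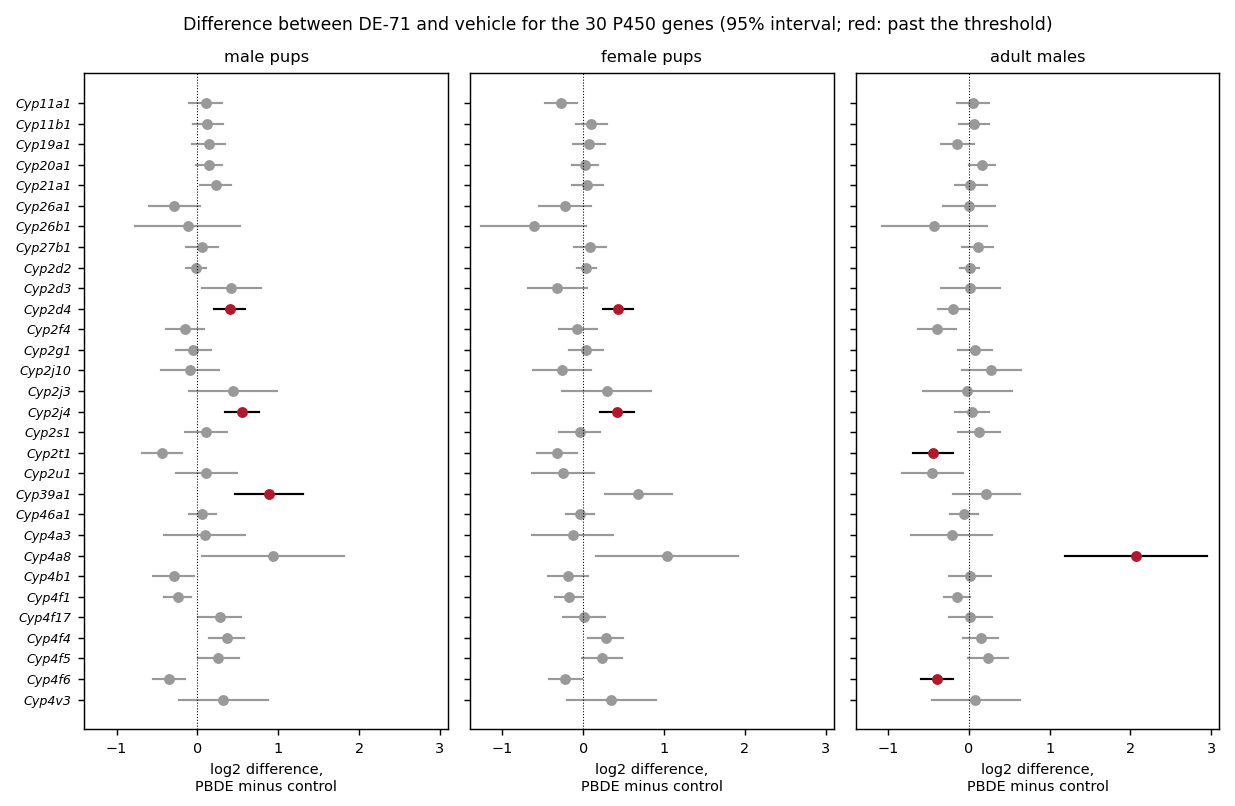
Log2 difference between PBDE and control (horizontal axes) with its 95% interval for each of the 30 genes in male pups, female pups and adult males; red points passed the threshold of their comparison. The points run from -0.44 to 0.93 in male pups and from -0.61 to 1.04 in female pups, and Cyp4a8 in adults stands at 2.07.

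The remaining genes gave no call in any dose comparison. Cyp26a1 and Cyp26b1 encode the hydroxylases that clear retinoic acid. Cyp26a1, dim on every array, differed by -0.29 ± 0.16, -0.22 ± 0.16 and 0.00 ± 0.16 in male pups, female pups and adults. Cyp26b1 differed by -0.12 ± 0.32, -0.61 ± 0.32 and -0.43 ± 0.32, with wide spreads such as 5.52 to 7.63 in female control pups, and its second probe set by 0.14 ± 0.09, 0.07 ± 0.09 and -0.15 ± 0.09. Cyp4v3, a fatty acid omega-hydroxylase, gave 11.54 to 11.74 in male PBDE pups, against 11.11 to 11.47 in male control pups, without overlap, but female control pup 1 stood at 9.43 beside 10.89 to 11.68 in the other female controls. The SD in that group was 0.93, and it is part of the common error. The difference of 0.32 ± 0.27 in male pups did not pass (adjusted p = 0.526). It also did not pass with the male pup groups fitted alone, where that spread does not enter. Cyp4b1, known from lung, differed by -0.29 ± 0.12, -0.19 ± 0.12 and 0.01 ± 0.12, and the orphan enzyme Cyp20a1 by 0.14 ± 0.08, 0.02 ± 0.08 and 0.16 ± 0.08. Cyp46a1, the cholesterol hydroxylase best known from brain, differed by 0.06 ± 0.08, -0.04 ± 0.08 and -0.06 ± 0.08, so that its intervals lay within 0.23 of 0. Cyp11a1, the side-chain cleavage enzyme that starts steroid synthesis, differed by -0.27 ± 0.10 in female pups (adjusted p = 0.0848) at levels below the array median.

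Whether the response to DE-71 differed between adult and pup males was tested as the adult difference minus the pup difference. The adults were also dosed for longer than the pups, so age and length of dosing cannot be told apart here. The response differed for 1 of the 30 genes, Cyp2d4, where 2.48% of all genes passed, 1.13% upward and 1.35% downward. The difference for Cyp2d4 was -0.59 ± 0.13 (interval -0.86 to -0.32, adjusted p = 0.0144). It joined the rise of 0.40 ± 0.09 in male pups with -0.19 ± 0.09 in adults, where PBDE rats gave 9.47, 9.69, 9.66, 9.70 and 9.56 and controls 9.74, 9.85, 9.79, 9.58 and 10.07, which overlap and did not differ past the threshold (adjusted p = 0.301). No left-out array ended this call, and the second probe set gave -0.50 ± 0.38 (adjusted p = 0.614). For Cyp2j4 it was -0.51 ± 0.14 (adjusted p = 0.064). This passed without adult PBDE rat 5 (0.0263), adult control rat 3 (0.0372) or male control pup 1 (0.0422), with the Gapdh covariate (0.0458) and with a filter on low values (0.0433). For Cyp39a1 it was -0.67 ± 0.29 (adjusted p = 0.271). The median over the 30 genes was -0.091, beside -0.011 over all genes.

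The sexes were compared in pups alone. No gene of the 30 passed between male and female control pups, where 0.0422% of all genes did, and 2 had an unadjusted p below 0.05 in limma. The lowest adjusted p was that of Cyp2f4, at 10.05 ± 0.13 in male and 9.66 ± 0.35 in female control pups (SD, n = 5 each, difference 0.39 ± 0.11, adjusted p = 0.243). Among PBDE pups 0 passed, with 0.0563% of all genes past the threshold and 3 of the 30 at an unadjusted p below 0.05. The largest difference was that of Cyp2d3, 0.80 ± 0.18 (interval 0.44 to 1.17, adjusted p = 0.133), with 12.03, 11.34, 11.39, 11.55 and 11.05 in male and 10.89, 10.33, 10.33, 11.28 and 10.51 in female PBDE pups. For sex by dose, the male response minus the female one, 0 of the 30 passed, as did 0.0% of all genes, and 2 had an unadjusted p below 0.05. Cyp2d3 again gave the largest value, 0.73 ± 0.25 (interval 0.22 to 1.25, adjusted p = 0.874).

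Adult and pup male controls were compared to see how these genes changed with age, and differences ran from -0.96 to 2.25. These groups differ in array prefix, and they share the control arrays of the dose comparisons. Of the 30 genes 7 were higher and 1 was lower in adults at a false discovery rate of 0.05, where 29.5% of all genes passed, 10.9% upward and 18.6% downward. The median difference, adult minus pup, was 0.091 over the 30 and -0.018 over all genes. The groups did not overlap for 6 of the 30, against 21.1% of all genes. Markers of other cells also differed with age. All 4 measured erythroid markers were lower in adult controls, with a mean level of 8.23 to 9.18 in adult control rats, against 9.87 to 10.59 in male control pups. Of 6 stellate cell markers 4 were lower (7.15 to 7.40 in adult control rats, against 7.93 to 8.29 in male control pups), and of 5 markers of sinusoidal endothelium 3 (9.34 to 9.57, against 9.79 to 10.05). Their part in the differences of the P450 genes was not tested. The Gapdh difference was 0.62 ± 0.18 in adult control rats and 1.61 ± 0.33 in male control pups (SD, n = 5 each).

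Cyp2d3 had the largest age difference. It gave 13.38, 13.30, 13.30, 13.13 and 13.44 in adult control rats, against 10.96, 11.67, 11.21, 10.89 and 10.58 in male control pups. The adult values were high and close together, and the difference was 2.25 ± 0.18 (interval 1.88 to 2.61), a 4.75-fold one (adjusted p = 1.13e-10). Adult PBDE rats, at 13.33 ± 0.09 (SD, n = 5), stood beside the adult controls at 13.31 ± 0.12 (difference 0.02 ± 0.18, adjusted p = 0.973). Within the same subfamily, Cyp2d4 differed by 0.54 ± 0.09 (1.45-fold, adjusted p = 5.7e-05), with 0.47 ± 0.27 for its second probe set (0.233), and the probe set shared by Cyp2d5 and Cyp2d1 by 0.25 ± 0.26 (0.545).

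Cyp26b1 gave 8.08, 7.66, 7.72, 7.68 and 8.38 in adult control rats, against 6.18, 6.45, 6.37, 6.32 and 6.93 in male control pups. The groups did not overlap, with a difference of 1.46 ± 0.32 (2.74-fold, adjusted p = 0.000986), and the second probe set gave a smaller one of 0.43 ± 0.09 (adjusted p = 0.000802). Cyp26a1, the other retinoic acid hydroxylase, differed by 0.01 ± 0.16. Cyp4a3 gave 12.58, 12.22, 11.83, 12.06 and 12.24 in adult control rats, against 11.61, 11.53, 11.11, 10.22 and 11.55 in male control pups, with no overlap (0.98 ± 0.25, 1.98-fold, adjusted p = 0.00359). With the Gapdh covariate it was 0.50 and did not pass (adjusted p = 0.233). The probe set shared with Cyp4a2 gave 1.36 ± 0.22 (adjusted p = 3.58e-05), whereas Cyp4a8 differed by 0.16 ± 0.43 (0.838).

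Cyp2j10 was the 1 gene that was lower in adults, at 5.58, 5.20, 4.87, 5.50 and 5.66 in adult control rats, against 6.39, 5.95, 6.44, 6.06 and 6.76 in male control pups. The groups did not overlap (-0.96 ± 0.18, 1.94-fold lower, adjusted p = 0.000151). The other Cyp2j genes did not go with it: Cyp2j3 differed by 0.77 ± 0.27 (adjusted p = 0.0374) and Cyp2j4 by -0.12 ± 0.10 (0.447). The value of Cyp2j3 turned on male control pup 4, without which it was 0.50 (adjusted p = 0.159), and it also did not pass without adult control rat 1, 2, 4 or 5 or male control pup 1 (0.0539 to 0.075), with the Gapdh covariate (0.12) or with a trended and robust eBayes (0.0521). Its second probe set passed (0.98 ± 0.31, adjusted p = 0.0201). Cyp4b1 differed by 0.40 ± 0.12 (adjusted p = 0.0181) and did not pass without adult control rat 5 (0.0558) or male control pup 2 (0.0803) or with the Gapdh covariate (0.0669). Cyp4f17 differed by 0.40 ± 0.13 (adjusted p = 0.0238) and did not pass without adult control rat 3 or 5 or male control pup 3 or 4 (0.0507 to 0.0708). 

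**Figure D4:**
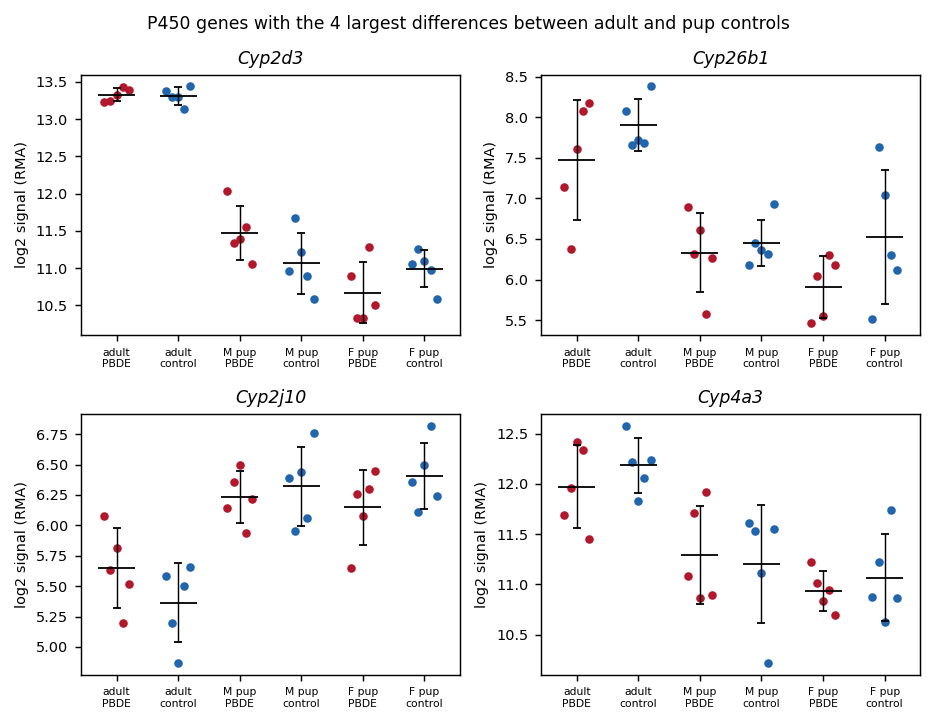
Log2 signal (vertical axes) of the 4 genes with the largest differences between adult and pup male controls, by group; points are single livers, red for PBDE and blue for control, and bars are the mean and SD of 5. Cyp2d3, Cyp26b1 and Cyp4a3 stand higher and Cyp2j10 lower in adult control rats than in male control pups.

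The partners of the P450 enzymes were read from a list of 8 electron donors and haem partners, of which 7 were measured. In male pups 3 of the 7 rose and 0 fell, and in female pups again 3 and 0. Of all genes, 4.23% passed upward in male pups, 3.95% in female pups and 1.86% in adults. The shares downward were 3.26%, 2.18% and 2.04%. This list and those that follow were chosen with earlier results of these data known, and whether their counts depart from these shares was not tested. Por, which hands electrons to the microsomal P450 enzymes, rose by 1.13 ± 0.14 in male pups (adjusted p = 2.05e-06), 1.31 ± 0.14 in female pups (2.3e-07) and 1.15 ± 0.14 in adults (5.34e-06), where it was the 1 of 7 that passed. Cytochrome b5, encoded by Cyb5a, rose by 0.41 ± 0.07 and 0.45 ± 0.07, and the haem-binding Pgrmc1 by 0.33 ± 0.06 and 0.30 ± 0.06, in male and female pups. The haem synthesis gene Alas1 did not pass (0.47 ± 0.22, 0.47 ± 0.22 and 0.58 ± 0.22), nor did Fdx1, the ferredoxin of the mitochondrial P450 enzymes (-0.21 ± 0.12, -0.25 ± 0.12 and 0.03 ± 0.12). The median of the list was 0.39, 0.41 and 0.17 in male pups, female pups and adults, beside 0.02, 0.016 and 0.009 over all genes.

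Of 15 measured genes of retinoid handling, which supply or bind the substrate of the Cyp26 enzymes, 1 rose in male pups, 1 rose and 1 fell in female pups and 2 rose in adults. Aldh1a1, which makes retinoic acid from retinal, rose by 1.5 ± 0.16, 1.52 ± 0.16 and 1.54 ± 0.16, Lrat, which esterifies retinol for storage, fell by 0.77 ± 0.16 in female pups, and the retinol transporter Stra6 rose by 0.33 ± 0.07 in adults. Stra6 lay near the array median, at 6.05 in adult PBDE rats and 5.71 in adult control rats. Among 8 enzymes of epoxides and eicosanoids 1 rose and 1 fell in male pups, 2 rose in female pups and 1 rose in adults. The microsomal epoxide hydrolase Ephx1 rose by 1.31 ± 0.13, 1.17 ± 0.13 and 0.77 ± 0.13, and the soluble epoxide hydrolase Ephx2, which converts the epoxides of arachidonic acid, fell by 0.51 ± 0.13 in male pups. Alox15, a lipoxygenase, rose by 1.09 ± 0.25 in female pups. None of 6 genes of vitamin D handling passed in any dose comparison in limma, with 1, 3 and 1 at an unadjusted p below 0.05 in male pups, female pups and adults. Among 8 regulators of liver P450 genes, the pregnane X receptor gene Nr1i2 fell by 0.58 ± 0.09 in male and 0.46 ± 0.09 in female pups, Nr1i3, which encodes the constitutive androstane receptor, fell by 0.76 ± 0.19 in female pups, and Onecut1, a liver transcription factor, fell by 1.47 ± 0.41 in adults (adjusted p = 0.0472).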

How the data were processed

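The authors deposited 1 table of log2 signals for 31099 probe sets on 30 arrays, made with RMA per the submitters' processing notes. The RMA version is not given in the sources read. Per the labels' protocols the RNA was amplified in 2 cycles from the 3' end, so signals can depend on RNA integrity. No value column was left unmapped to a sample. Leaving out 57 control probe sets, 31042 were tested, of which the platform annotation tied 20826 to 1 gene, 436 to several and 9780 to none. All 30 P450 genes matched RefSeq by Entrez ID, and 5 P450 probe sets naming several genes were not counted among them.

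A linear model with 6 group means covered the 30 arrays at once, using limma 3.58.1 (lmFit, eBayes) in R 4.3.3, with Benjamini-Hochberg adjustment over all 31042 probe sets. The false discovery rate was 0.01 for pups and sex by dose and 0.05 for adults, age by dose and age, after the study's design text, whose authors used R/maanova. The number of arrays limits the precision, and intervals are at a confidence level of 95%. Gene percentages are over the 14217 genes read from 1 probe set each.

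Groups came from the labels. The main model did not treat replicate numbers as pairs. Same-number arrays had a mean residual correlation of 0.00417, others -0.000906, and 18 of 75 same-number pairs exceeded 0.1. For 11 arrays the closest match carried the same replicate number. These counts have no background beside them, and whether they exceed chance was not tested. Alternatives were the second probe set, the compared groups alone, a trended and robust eBayes, renewed quantile normalization, a filter on low values, the difference between 3' and 5' Gapdh signals as a covariate, a replicate block, the other threshold and leaving out each array. The rule gave array values for genes past a threshold with dose or sex or in an interaction, or with an age difference of 2 or more on the log2 scale past its threshold, and near paralogs side by side. Array values of other genes were added after they were seen. Non-members were named from 6 lists, and 10 marker lists were read. The 30 genes and all lists were chosen with earlier results of these data known. Promoters are from RefSeq, build GRCr8.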

Additional observations from a re-analysis of the deposited data

Results flagged for a closer look

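Cyp2d4 responded differently to DE-71 in adult and pup males, by a tested interaction of -0.59 ± 0.13 on the log2 scale (limma, adjusted p = 0.0144). Its PBDE mean was above the control mean in male pups and below it in adults, and the adult difference on its own did not pass. The adults were also dosed for longer, so age and length of dosing cannot be told apart. The second probe set gave -0.50 ± 0.38 (adjusted p = 0.614).

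Of 180 groups of 5 arrays examined, 4 held a single array far from the rest, where chance marks about 1 in 20 groups. Cyp2d4 stood at 9.04 in male control pups replicate 1, beside 9.29 to 9.38 in the other male control pups. The other 3 were dim genes. Cyp11b1 was 3.54 in adult control rats replicate 5, beside 3.25 to 3.31, Cyp21a1 was 5.11 in male control pups replicate 5, beside 4.85 to 4.91, and Cyp27b1 was 4.75 in adult control rats replicate 1, beside 5.32 to 5.47.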

How the results depend on the processing

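The 21 gene differences past a false discovery rate of 0.05 with dose, with age or for age by dose, followed over 374 settings, kept their direction in all 374. In 295 the side of the threshold was the same, in 72 a call was lost and in 7, the other threshold included, one was gained. Gains of Cyp4a8 in female pups, Cyp2f4 in adults and Cyp2j4 for age by dose stand beside those genes and are not among the 7. The count in male pups, 3, was 1 with the compared groups alone and 6 at a false discovery rate of 0.05. In female pups, 2 became 1 with the Gapdh covariate, after renewed quantile normalization, with the second probe set and with a replicate block, which changed no other count of calls by over 1.5 times. With the female groups alone, Cyp39a1 and Cyp4a8 passed in place of Cyp2d4 and Cyp2j4. In adults, 3 became 0 with the compared groups alone and 1 at 0.01. For age by dose, 1 became 2 with the Gapdh covariate or the filter on low values, and 0 at 0.01 or with the second probe set. For age, 8 became 5 with the covariate and 5 at 0.01. The cause of these shifts was not tested.

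Leaving out each array gave 1 to 4 calls in male pups, 0 to 2 in female pups, 1 to 4 in adults, 1 to 2 for age by dose, 5 to 8 for age, and 0 to 0 for both sex comparisons and sex by dose. Counts moved by over 1.5 times without male PBDE pup 2 or male control pup 1 (1 call each), and without female PBDE pup 1 or 4 or female control pup 1 (1 call each). The female count was 0 without female PBDE pup 3 or 5 or female control pup 3 or 4. In adults it was 1 without PBDE rat 4 or 5 or control rat 2, 3 or 4. For age by dose it was 2 without adult PBDE rat 5, adult control rat 3 or male control pup 1, and for age 5 without adult control rat 5. The 9 genes below the array median on all arrays carry little signal over background, which limits what their tests could show.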
